A study of Mus musculus with 8 samples.

Results

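Rab7b, Lrrc75b, Elovl7, Prr7, Tdrp, Serp2, Mup20, Atp6v0d2, Klhl14 and Hpgd are 10 of the 15138 genes tested, and were picked for large decreases after stimulation of mouse splenic T cells in wild-type (WT) or Lsp1-deficient (KO) arrays. The choice came with no stated threshold. They were chosen on the stimulated minus medium difference, so that difference is given below as a description, with no p-value for these genes and nothing read from calls on it. Ordered by fitted change from the deepest fall, the 10 genes ranked between 2 (Rab7b) and 838 (Prr7) in KO cells, with Mup20 next to last at 96, and between 6 (Rab7b) and 83 (Atp6v0d2) in WT cells. All 10 had a probe whose RefSeq transcript is theirs, and all 10 passed the filter on dim probes, Klhl14 only through the WT medium arrays and Hpgd only through the medium arrays.

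Messenger RNA was measured on 8 one-colour Agilent arrays, with 2 arrays in each of 4 groups. The groups were Lsp1-/- cells given antibodies against CD3 and CD28 for 6 h, Lsp1-/- cells in medium, Lsp1+/+ cells given the same antibodies for 6 h, and Lsp1+/+ cells in medium. KO mice had been backcrossed for 10 generations to C57BL/6, controls were C57BL/6 mice matched for age and sex, mice were 8 to 12 weeks old by default, and every RNA integrity number was above 9.5. The labels name neither the method of T cell purification nor separate animals for the arrays of a group, so the p-values cover only the variation among these samples, possibly technical. Lsp1 encodes a leukocyte protein that binds actin filaments. Its log2 signal was 3.69 and 3.65 in stimulated KO cells, 3.64 and 3.48 in KO cells in medium, 7.06 and 6.99 in stimulated WT cells and 7.48 and 7.24 in WT cells in medium. Every signal below is on this scale, log2 relative to the 75th percentile of the array.

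Antibodies against CD3 and CD28 stand in for antigen and costimulation, and within hours T cells switch from quiescence to growth, with new cytokine messages and the loss of others. The 10 genes belong to no single pathway. Rab7b is a small GTPase of late endosomes and Atp6v0d2 a subunit of the proton pump (V-ATPase) that acidifies them. Elovl7 elongates fatty acids and Hpgd inactivates prostaglandins. Serp2 is an endoplasmic reticulum membrane protein related to the translocon-associated Serp1, Mup20 a lipocalin best known as a pheromone of male mouse urine, Klhl14 a Kelch-like protein studied in mouse B-1 cells, and Prr7 a transmembrane adaptor studied in neurons and T cells. Tdrp was described in mouse testis.

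The 8 arrays showed 58.4% to 69.2% of probes well above background, and all 18 T cell markers were so on all 8, Cd3e with log2 signals between 5.71 and 6.32. Markers of other cells were present too. Csf1r, Lyz2, Adgre1 and C1qa of macrophages, Itgax of dendritic cells, Elane and S100a8 of granulocytes, Ncr1 of natural killer cells, and Cd79a and Ms4a1 of B cells were well above background on all 8 arrays. Both KO replicate 2 arrays stood apart. The summed level of 13 measured neutrophil markers, in linear signal relative to the 75th percentile, was 442 in stimulated and 770 in medium KO cells on replicate 2. It was 152 and 191 on replicate 1, and lay between 143 and 256 on the WT arrays. Csf3r was the brightest of the 13 on every array but KO replicate 2, at 6.85 to 7.67, and had 6.63 and 6.76 there, so the sums understate the gap. The list's median log2 difference from the WT medium mean was 3.07 and 4.19 on KO replicate 2. On KO replicate 1 it was -1.45 and -0.42, and on the WT arrays -0.90 to 0.29. Erythroid and platelet markers (11 measured of 13) summed to 171 and 159 on KO replicate 2, 19.9 on both KO replicate 1 arrays, and 23.1 to 46 on WT arrays. Changes in KO cells without those arrays, an alternative added after seeing the data, are given after the single genes.

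In all 10 genes, every stimulated array lay below every medium array of the same genotype, in both genotypes. Of all genes 21.3% had that property in both genotypes, 28.6% in KO and 42.1% in WT cells. A gene is said to be called at an adjusted p under 0.05 by limma's moderated test, with Benjamini-Hochberg adjustment over all genes. In stimulated cells 2.27% of all genes were called lower in KO and 3.84% in WT cells, and 8 of the 10 were among them in KO and 9 in WT cells. The genes were chosen on this difference, so nothing is read from these counts. The median log2 change of the 10 was -1.88 in KO and -2.13 in WT cells, against -0.08 and -0.09 over all genes.

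**Figure D1:**
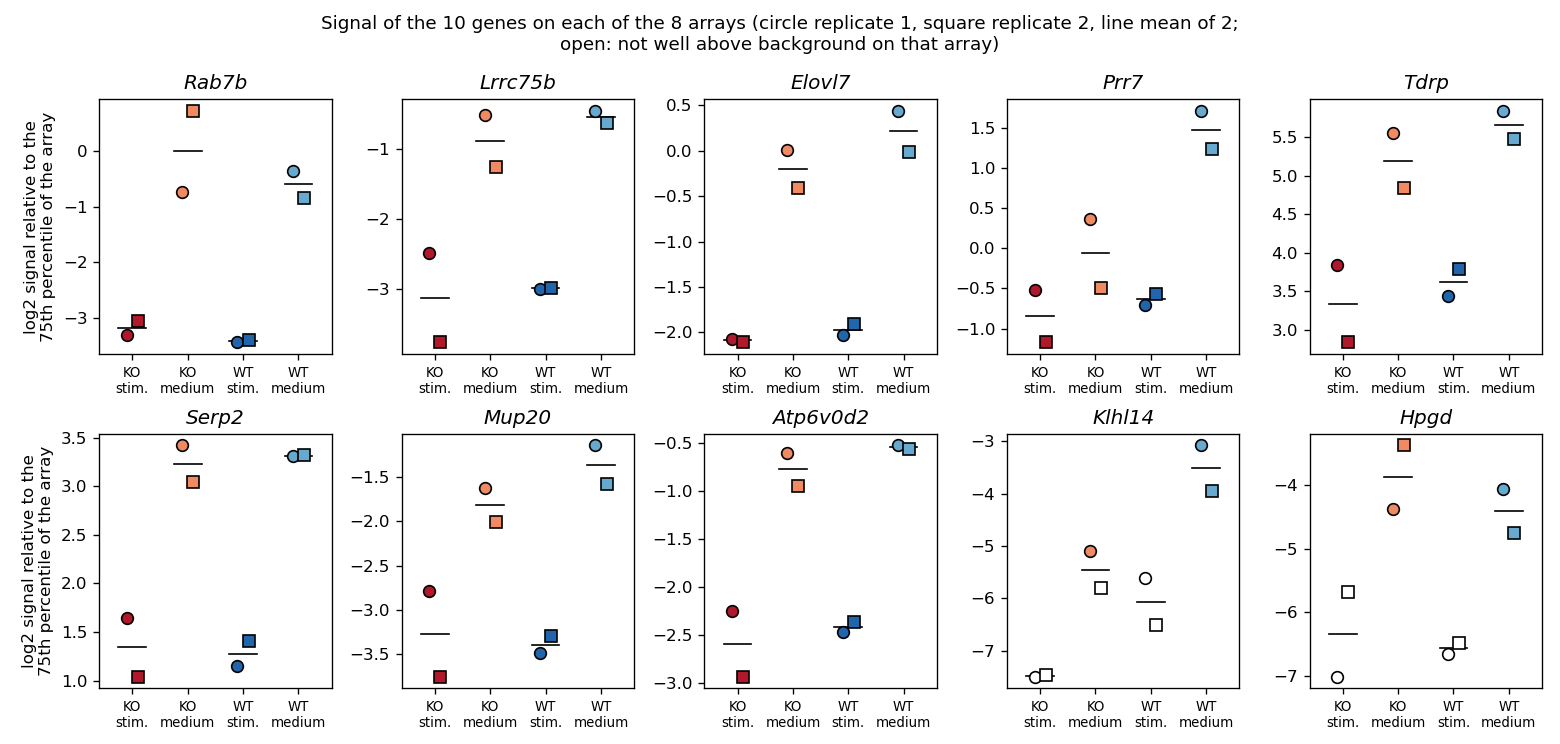
Each panel plots 1 gene, with the log2 signal relative to the 75th percentile of the array on the y axis (ranges differ between panels) and stimulated KO, medium KO, stimulated WT and medium WT cells along the x axis. Circles are replicate 1, squares replicate 2, lines the mean of 2, and open symbols were not well above background on that array. In every panel the stimulated arrays lie below the medium arrays of the same genotype, although the nearest KO arrays of Prr7, at -0.52 stimulated and -0.50 in medium, nearly touch.

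Rab7b, a GTPase that carries cargo between late endosomes and the Golgi, had log2 signals of -3.31 and -3.05 in stimulated KO cells, against -0.74 and 0.72 in KO cells in medium. In WT cells it had -3.44 and -3.39 after stimulation, against -0.36 and -0.84 in medium. The change was -3.16 ± 0.46 in KO (8.97-fold lower) and -2.82 ± 0.46 in WT cells (7.04-fold lower), where ± is the standard error of the fit with 2 arrays per group. The high value of 0.72 is that of KO replicate 2 in medium, and without both KO replicate 2 arrays the KO change was -2.56. Rab7, the general late endosomal GTPase that shares the name, did not pass the test, with 0.07 ± 0.12 in KO and 0.09 ± 0.12 in WT cells.

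Atp6v0d2 is the d isoform of the V-ATPase membrane sector that is enriched in osteoclasts and macrophages. It had log2 signals of -2.25 and -2.94 in stimulated KO cells, against -0.61 and -0.95 in KO cells in medium, and of -2.47 and -2.37 in stimulated WT cells, against -0.53 and -0.57 in WT cells in medium. The groups did not overlap, and the changes of -1.82 ± 0.24 in KO (3.53-fold lower) and -1.87 ± 0.24 in WT cells (3.65-fold lower) were close. A second, dimmer probe of Atp6v0d2 gave -1.96 in KO and -1.32 in WT cells. The widely expressed isoform Atp6v0d1 did not pass the test, with -0.25 ± 0.13 and 0.00 ± 0.13.

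Among the other 19 V-ATPase subunits, all measured, 0 were called higher and 1 lower in each genotype. That was Atp6v1d, the central stalk subunit of the peripheral sector, which fell by 1.1 in KO (SE 0.19, adjusted p = 0.0238, limma) and by 1.19 in WT cells (SE 0.19, adjusted p = 0.0192). The list's median change was -0.06 in KO and -0.01 in WT cells, near that of all genes, of which 8.13% and 10.3% were called in either direction. Of 31 endosomal Rab GTPases and Rab7 partners, Rilpl1 was lower in KO cells (-0.61 ± 0.11, adjusted p = 0.0252, limma), with 1 called in KO and 0 in WT cells. The list's median was -0.08 in KO and -0.09 in WT cells.

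Elovl7, an endoplasmic reticulum elongase of long saturated fatty acids, had log2 signals of -2.07 and -2.11 in stimulated KO cells, against 0.01 and -0.41 in KO cells in medium. In WT cells they were -2.03 and -1.91 after stimulation, against 0.44 and -0.01 in medium. All 4 stimulated arrays lay close together, and the medium arrays were higher in both genotypes. The change was -1.88 ± 0.20 in KO (3.69-fold lower) and -2.19 ± 0.20 in WT cells (4.55-fold lower).

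Hpgd, which encodes 15-hydroxyprostaglandin dehydrogenase, was dim. It had log2 signals of -7.02 and -5.68 in stimulated KO cells, against -4.38 and -3.37 in KO cells in medium, and of -6.66 and -6.48 in stimulated WT cells, against -4.06 and -4.75 in WT cells in medium. It was well above background on the 4 medium arrays and on none of the stimulated ones, so only a bound holds there. It was at least 3.57-fold lower in stimulated KO and at least 2.36-fold lower in stimulated WT cells, from the medium mean against, on each stimulated array, the higher of the probe's own signal and the lowest signal well above background. The fitted changes, -2.48 ± 0.53 and -2.17 ± 0.53, depend on how background is removed. With normexp background correction they were -0.82 in KO and -0.53 in WT cells, and in the deposited value table -0.95 and -0.58.

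RefSeq promoter sequences (build GRCm38.p6, 250 bases before to 50 after the start) were searched for 4 of the 10 genes. The other 6 had no entry or were not searched. Elovl7, Hpgd and Prr7 are shown because they fall in 3 different patterns over the arrays, as given below, that of Hpgd partly at background level. Their positions are chr13:108214154-108214453, chr8:56294302-56294601 and chr13:55464017-55464316, all on the + strand. Capitals mark matches, on either strand, to the 6 words searched. Of the 32851 promoters of the table, 35.7% held a GC box with the letters GGGCGG, 13.6% a TATA box with the letters TATAAA and 7.15% an E-box with the letters CACGTG. The forkhead word TGTTTAC was in 3.65%, the Ets word of PU.1 type GAGGAAGT in 3.2% and the NFAT-type word TGGAAA in 21.4%. No match overlapped another in the sequences shown.
Elovl7: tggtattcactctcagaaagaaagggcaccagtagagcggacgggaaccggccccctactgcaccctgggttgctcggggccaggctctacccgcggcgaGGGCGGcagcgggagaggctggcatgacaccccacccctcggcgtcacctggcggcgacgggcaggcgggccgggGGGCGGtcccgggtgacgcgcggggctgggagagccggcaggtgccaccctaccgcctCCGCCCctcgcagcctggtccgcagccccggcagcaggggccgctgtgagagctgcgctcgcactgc
Hpgd: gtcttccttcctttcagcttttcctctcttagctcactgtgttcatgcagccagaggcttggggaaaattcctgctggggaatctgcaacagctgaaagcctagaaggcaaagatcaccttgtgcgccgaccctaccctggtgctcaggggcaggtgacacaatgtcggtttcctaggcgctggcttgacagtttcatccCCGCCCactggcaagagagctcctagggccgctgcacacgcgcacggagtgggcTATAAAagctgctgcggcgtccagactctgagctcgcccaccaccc
Prr7: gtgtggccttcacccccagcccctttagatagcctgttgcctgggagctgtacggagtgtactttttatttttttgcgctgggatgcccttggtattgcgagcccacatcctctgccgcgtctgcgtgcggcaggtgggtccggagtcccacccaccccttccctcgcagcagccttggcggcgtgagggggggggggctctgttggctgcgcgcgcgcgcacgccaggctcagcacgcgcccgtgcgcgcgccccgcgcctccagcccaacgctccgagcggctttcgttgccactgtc
Elovl7 held 3 GC boxes, and Hpgd 1 GC box and 1 TATA word, which begins at position 4, after the listed start rather than before it. Prr7 held none of the 6 words in this window. Serp2, the other gene searched, has 2 entries, of which only the first was searched, and that held none either.

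Of 22 measured genes of fatty acid elongation, desaturation and synthesis (24 listed, Elovl7 left out), 4 were called higher and 0 lower in each genotype, where 5.85% of all genes were called higher in KO and 6.42% in WT cells. Fasn, the fatty acid synthase, rose by 1.12 ± 0.13 in KO (adjusted p = 0.00814, limma) and 0.86 ± 0.13 in WT cells (adjusted p = 0.0169). Acsl5, which activates fatty acids, rose by 0.80 ± 0.16 and 0.95 ± 0.16 (adjusted p = 0.0371 and 0.0217), and Acaca, the carboxylase of the first step, by 0.64 ± 0.12 and 0.54 ± 0.12 (adjusted p = 0.0316 and 0.0448). Among the elongases, Elovl6 rose in KO cells (0.78 ± 0.17, adjusted p = 0.0453) and had 0.57 ± 0.17 in WT cells (adjusted p = 0.0864). Elovl1 had 0.12 and -0.09 and Elovl5 -0.16 and -0.05 in KO and WT cells.

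Of 23 measured genes of prostaglandin synthesis, reception and inactivation (25 listed, Hpgd left out), 2 were called higher and 2 lower in each genotype. Ptgs2, the inducible cyclooxygenase, is 1 of the 2 called higher. It was well above background on stimulated arrays only and passed the filter through them, so its rise is a description. It was at least 8.58-fold higher in stimulated KO and at least 4.33-fold higher in stimulated WT cells. Ptger4, a prostaglandin E2 receptor, rose by 1.19 ± 0.15 in both genotypes (adjusted p = 0.00974 in KO and 0.0102 in WT, limma). Ptger3, another receptor of that ligand, fell by 1.01 in KO (SE 0.21, adjusted p = 0.039) and by 1.0 in WT cells (SE 0.21, adjusted p = 0.0366). Ptgir, the prostacyclin receptor, fell in WT cells by 1.54 (SE 0.31, adjusted p = 0.0326) and had -1.0 ± 0.31 in KO cells (adjusted p = 0.107). The list's median change was -0.13 in KO and -0.00 in WT cells.

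Serp2, of the family that includes Serp1 of the endoplasmic reticulum translocon, had log2 signals of 1.65 and 1.04 in stimulated KO cells, against 3.42 and 3.04 in KO cells in medium. In WT cells it had 1.15 and 1.41 after stimulation, against 3.31 and 3.32 in medium. Its change was -1.88 ± 0.24 in KO (3.69-fold lower) and -2.03 ± 0.24 in WT cells (4.09-fold lower), with no overlap in either genotype. Serp1 itself had 0.10 ± 0.12 and 0.05 ± 0.12 and did not pass the test. Of 25 translocon genes, all measured, 0 were called in either genotype by limma, and the median change was 0.03 in KO and 0.12 in WT cells.

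Mup20 had log2 signals of -2.79 and -3.76 in stimulated KO cells, against -1.62 and -2.01 in KO cells in medium, and of -3.49 and -3.30 in stimulated WT cells, against -1.14 and -1.58 in WT cells in medium. It changed by -1.47 ± 0.34 in KO (2.76-fold lower) and -2.04 ± 0.34 in WT cells (4.10-fold lower). Mup genes are a family of near-identical copies, so the transcript behind this probe is uncertain. A second Mup20 probe was not well above background on any of the 8 arrays. Of the 3 other Mup genes measured, Mup4 had -1.29 ± 0.33 in KO (adjusted p = 0.0697, limma) and fell in WT cells, by 1.73 (SE 0.33, adjusted p = 0.0288), while Mup2 had -0.27 and -0.12 and Mup21 -0.41 and -0.11.

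Prr7 fell less in KO than in WT cells by fitted value. Its log2 signals were -0.52 and -1.17 in stimulated KO cells, against 0.37 and -0.50 in KO cells in medium, and -0.70 and -0.57 in stimulated WT cells, against 1.71 and 1.23 in WT cells in medium. The change was -0.78 ± 0.36 in KO (1.72-fold lower) and -2.10 ± 0.36 in WT cells (4.29-fold lower). The KO change was -0.46 without KO stimulated replicate 2, -0.34 without KO medium replicate 1 and -1.22 without KO medium replicate 2, while between same-numbered KO arrays it was -0.89 for replicate 1 and -0.67 for replicate 2. The medium KO arrays lay below the medium WT arrays (-1.54 ± 0.36), whereas the stimulated groups differed by -0.22 ± 0.36. The KO minus WT difference in response was 1.32 ± 0.50, a description only, because the response was used for the choice. For the other 9 genes that difference lay between -0.35 (Rab7b) and 0.57 (Mup20).

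**Figure D2:**
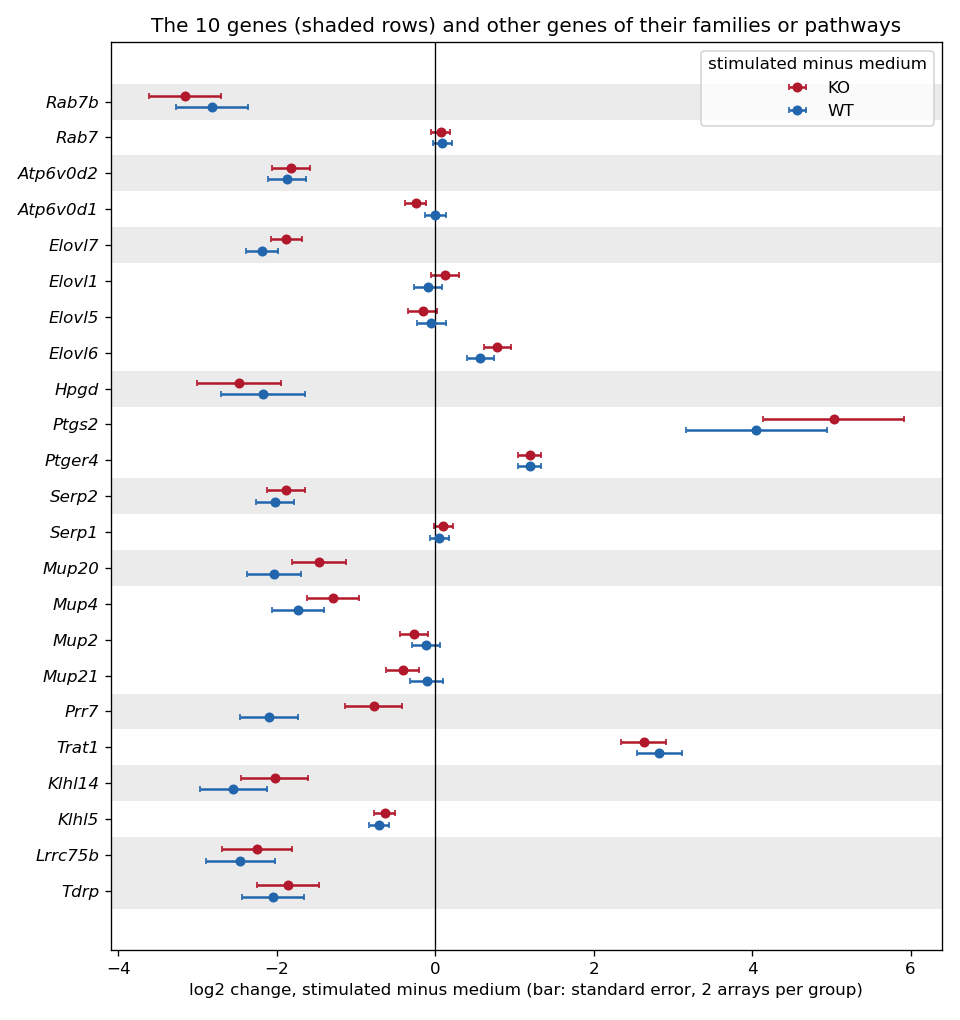
The x axis gives the log2 change, stimulated minus medium, with bars of 1 standard error (2 arrays per group), and each row is a gene, shaded for the 10 genes and unshaded for other genes of their families or pathways. Rab7b stands at -3.16 in KO cells, while Rab7 (0.07) and Atp6v0d1 (-0.25) lie near 0.

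Of 18 transmembrane and cytosolic adaptors of lymphocyte receptors, all measured, 2 were called higher and 0 lower in each genotype. Trat1, which binds the T cell receptor complex, rose by 2.63 ± 0.28 in KO (adjusted p = 0.00585, limma) and 2.83 ± 0.28 in WT cells (adjusted p = 0.00454). Lcp2, the adaptor SLP-76, rose by 0.96 ± 0.15 and 0.87 ± 0.15 (adjusted p = 0.0162 and 0.0219). The list's median was -0.17 in KO and -0.15 in WT cells.

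Klhl14 was dim. It had log2 signals of -7.50 and -7.46 in stimulated KO cells, against -5.09 and -5.81 in KO cells in medium, and of -5.62 and -6.51 in stimulated WT cells, against -3.08 and -3.95 in WT cells in medium. Only 3 arrays, both WT in medium and 1 of 2 KO in medium, were well above background. Stimulated WT cells were at least 4.31-fold lower. No bound is given for KO cells, since 1 of the 2 KO medium arrays was not well above background. The fitted changes of -2.03 ± 0.42 in KO and -2.55 ± 0.42 in WT cells shrank to -0.31 and -0.85 with normexp background correction, and to -0.27 and -0.94 in the deposited value table. Of 25 measured Kelch-like genes (28 listed, Klhl14 left out), 0 were called higher, and 1 was called lower in KO and 2 in WT cells. Klhl5 was called in both, at -0.64 ± 0.13 in KO (adjusted p = 0.042, limma) and -0.71 ± 0.13 in WT cells (adjusted p = 0.0292), and Klhl13 in WT cells at -0.53 ± 0.11 (adjusted p = 0.0385), with -0.20 ± 0.11 in KO cells.

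The 2 remaining genes were alike in pattern. Tdrp had log2 signals of 3.84 and 2.84 in stimulated KO cells, against 5.55 and 4.84 in KO cells in medium, and of 3.44 and 3.79 in stimulated WT cells, against 5.84 and 5.48 in WT cells in medium. It changed by -1.86 ± 0.39 in KO (3.62-fold lower) and -2.05 ± 0.39 in WT cells (4.13-fold lower), and a second probe of it gave -1.87 and -1.84. Lrrc75b, a leucine-rich repeat gene, had log2 signals of -2.49 and -3.77 in stimulated KO cells, against -0.51 and -1.25 in KO cells in medium, and of -3.0 and -2.99 in stimulated WT cells, against -0.45 and -0.62 in WT cells in medium. It changed by -2.25 ± 0.44 in KO (4.76-fold lower) and -2.46 ± 0.44 in WT cells (5.51-fold lower). In both genes KO replicate 2 was the lowest of the stimulated arrays.

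The shape of the pattern over the 8 arrays was compared between genes as the root mean square difference of their log2 signals, each centred on its own mean, where 0 is the same shape. Lrrc75b, Elovl7, Tdrp, Serp2, Mup20 and Atp6v0d2 differed from each other by 0.12 to 0.37, which is small beside their own root mean square deviations over the arrays of 0.94 to 1.24. Rab7b and Hpgd differed by 0.45 from each other and by 0.63 to 0.92 from those 6. Prr7 differed from the same 6 by 0.45 to 0.65, and Klhl14 from any of the other 9 by 0.70 to 1.27. Klhl14 was well above background on 3 of the 8 arrays and Hpgd on 4, so their distances rest partly on background-level values. Over all 15113 genes compared, the likest to Atp6v0d2 was Mex3b (0.08), to Serp2 was Atp6v0d2 (0.12), to Mup20 was Cpm (0.13) and to Tdrp was Slc28a2b (0.14). Cd55 was likest to Elovl7 (0.17). For Rab7b and Hpgd it was P2ry6 (0.33 and 0.35), followed by Hpgd (0.45) and Clec4a4 (0.47) for Rab7b and by Thbd (0.35) and Cyp27a1 (0.36) for Hpgd. P2ry6 and Clec4a4 stand in the dendritic cell list, but were put there with their falls in these arrays known. Nothing is read from this likeness. Hoga1, well above background on only 2 arrays, was likest to Prr7 (0.24) and Prss23 to Klhl14 (0.62), the largest of these distances. These values describe arrays that share samples and carry no test.

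Of the 12 measured dendritic cell markers (15 listed), the 3 called lower in each genotype were Clec4a4, P2ry6 and Mycl, and 0 were called higher. These 3 were put on the list with their falls in these arrays known, and each was well above background on medium arrays only, so their falls are a description. Clec4a4, a lectin receptor, was at least 4.27-fold lower in stimulated KO and at least 3.39-fold lower in stimulated WT cells. P2ry6, a nucleotide receptor, was at least 5.99-fold and at least 4.30-fold lower, and Mycl, a transcription factor, at least 3.30-fold and at least 2.71-fold lower. Itgax, an integrin of dendritic cells, had 0.07 ± 0.20 in KO and 0.30 ± 0.20 in WT cells. The list's summed level was 239 to 254 in stimulated KO cells, against 287 to 358 in KO cells in medium, and 254 to 268 in stimulated WT cells, against 335 to 337 in WT cells in medium. Siglech and Ccr7, the second of which naive T cells also express, made up 97.6% to 99% of that sum on the KO arrays and 98.3% to 98.8% on the WT arrays, and were named after their values were seen. The other 10 markers summed to 3.4 to 5.79 in stimulated KO cells, against 3.71 to 6.51 in KO cells in medium, and to 3.66 to 4.39 in stimulated WT cells, against 3.92 to 3.95 in WT cells in medium, which overlap in both genotypes.

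Of 15 measured monocyte and macrophage markers (17 listed), 0 were called in either genotype by limma, and with the replicate block within genotype 3 were called in KO and 5 in WT cells. Their summed level was 6.57 to 22 in stimulated KO cells, against 7.16 to 25.8 in KO cells in medium, and 6.18 to 6.74 in stimulated WT cells, against 6.89 to 8.36 in WT cells in medium. Plasma cell markers (7 of 7 measured) had 2 called lower and 0 higher in each genotype. Sdc1, the syndecan of plasma cells, fell by 1.34 in KO (SE 0.18, adjusted p = 0.0112, limma) and by 0.97 in WT cells (SE 0.18, adjusted p = 0.0281). Xbp1, a secretory transcription factor, fell by 0.77 (SE 0.14, adjusted p = 0.027) and 0.64 (SE 0.14, adjusted p = 0.0417). Of 10 measured stromal and endothelial markers, 1 was called lower in each genotype and 1 higher in KO cells. The lower one was Cdh5, an endothelial cadherin, well above background on 3 of the 8 arrays, so no fold is given for it. The higher one was Col1a1, a collagen chain, with 0.63 ± 0.12 in KO (adjusted p = 0.0291, limma) and -0.02 ± 0.12 in WT cells. Natural killer cell markers (11 of 11 measured) had 2 called higher and 1 lower in KO cells and 3 higher and 1 lower in WT cells. Eomes, a transcription factor that activated CD8 T cells also express, rose by 1.53 ± 0.14 in KO and 1.78 ± 0.14 in WT cells. Of 18 T cell markers, 1 was called in each genotype, Trat1. Of the 13 neutrophil and the 11 erythroid and platelet markers measured, 0 were called in either genotype by limma. For neutrophil markers that 0 does not show an absence of change, because their spread was wide, as in S100a8 (-0.86 ± 2.20 in both genotypes). By fitted value 13 of the 13 fell in KO and 12 in WT cells, with medians of -0.92 and -0.68. Over the alternatives 0 to 9 of them were called in KO and 0 to 8 in WT cells. The erythroid and platelet medians were 0.06 and -0.06. The part of these cells in the falls of the 10 genes was not tested, and in such bulk samples fewer cells of a type and less RNA per cell cannot be told apart. Cd68 and Zbtb46 were not analysed here.

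**Figure D3:**
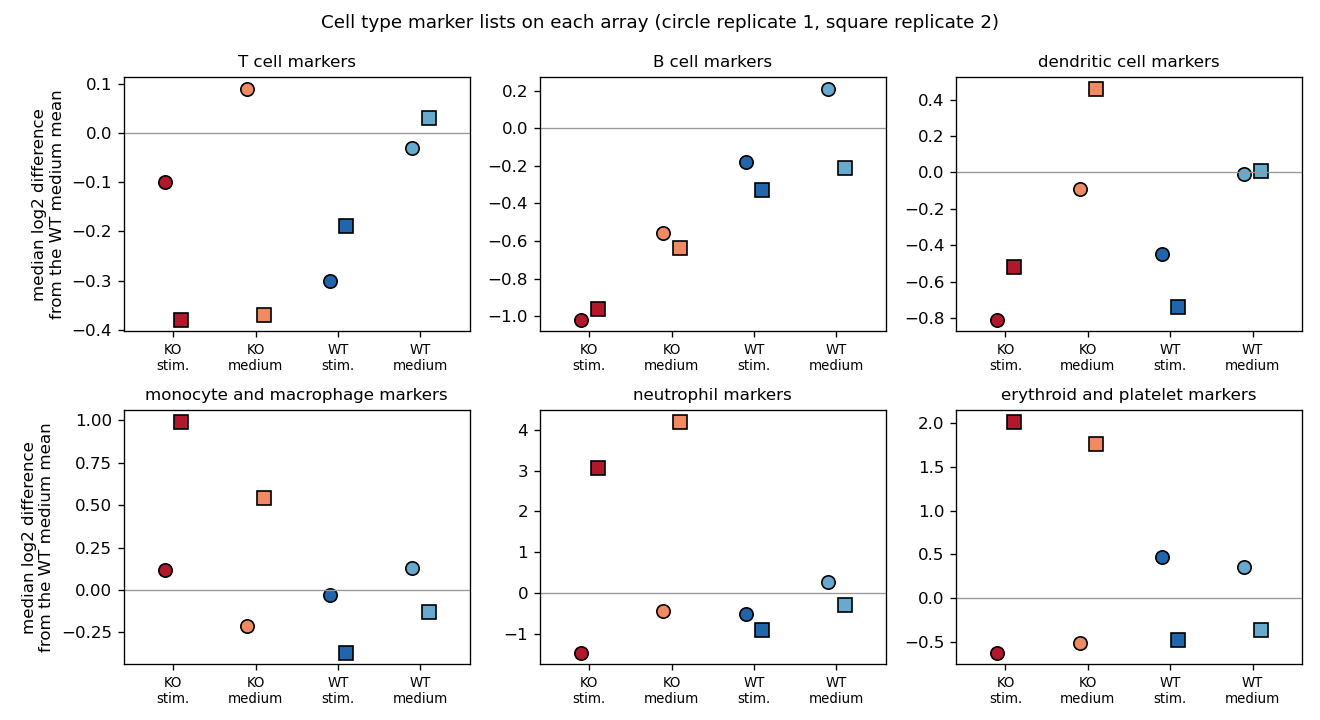
Each panel is a cell type marker list, with the median log2 difference from the WT medium mean over its measured genes on the y axis and stimulated KO, medium KO, stimulated WT and medium WT cells along the x axis; circles are replicate 1 and squares replicate 2. The neutrophil panel reaches 4.19 on KO medium replicate 2 and the erythroid panel 2.01 on KO stimulated replicate 2, while B cell markers lie at -0.56 or below on all 4 KO arrays.

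The 7 genes Lrrc75b, Elovl7, Prr7, Tdrp, Serp2, Mup20 and Atp6v0d2 were lower on replicate 2 than on replicate 1 in both KO groups, and Rab7b and Hpgd were higher on it in both. Of all genes 46.8% were lower and 25.9% higher in both. The median of the 10 genes, replicate 2 minus replicate 1, was -0.63 in stimulated and -0.41 in medium KO cells. The T cell markers moved with the 7, with summed levels of 710 on replicate 2 and 870 on replicate 1 in stimulated KO cells and 752 and 1030 in KO cells in medium. The monocyte and macrophage, neutrophil, and erythroid and platelet markers were higher on replicate 2, like Rab7b and Hpgd. The first summed to 22 on replicate 2 and 6.57 on replicate 1 in stimulated KO cells and to 25.8 and 7.16 in KO cells in medium, and the values of the other lists are given above. The part of any of them in the genes' values was not tested. Without both KO replicate 2 arrays each KO group is 1 array, and the spread comes from the WT arrays alone. The KO change was then -2.56 for Rab7b and -1.64 for Atp6v0d2, -2.07 for Elovl7 and -2.64 for Hpgd. It was -1.77 for Serp2, -1.18 for Mup20 and -0.89 for Prr7. Klhl14 had -2.41, Tdrp -1.71 and Lrrc75b -1.98. Calls in KO cells, made with 1 array per KO group, were 0 fatty acid genes, 0 V-ATPase subunits, 0 endosomal Rab genes, 0 Kelch-like proteins, 0 B cell markers, 1 adaptor, 2 prostaglandin genes and 2 dendritic cell markers.

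KO and WT cells were compared by the KO minus WT difference averaged over stimulated and medium arrays, which, with 2 arrays in every group, does not covary with either stimulation difference. By limma's test 0 of the 10 genes were called (lowest adjusted p = 0.19), against 0.00661% of all genes, that is Lsp1 alone (-3.57 ± 0.09, 11.9-fold lower, adjusted p = 0.000222). At an unadjusted p under 0.05 by the same test there were 2 of the 10, Klhl14 and Prr7, and 1239 of the 15138 genes tested. Klhl14 passed the filter only through WT medium, where it is high, so nothing is read from its p. The difference was negative in 8 of the 10, against 61.9% of all genes, and its median was -0.22, against -0.05.

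Klhl14 had a difference of -1.67 ± 0.30 (95% interval -2.40 to -0.95, adjusted p = 0.19, limma). It passed the filter only through WT medium, where it is high, and 5 of the 8 arrays averaged here were not well above background, so the size and interval rest largely on background-level values. In medium, with 1 of 2 KO arrays well above background, the difference was -1.93 ± 0.42. After stimulation no array was well above background, and no fold is given. Background correction mattered, with -0.58 by normexp and -0.70 in the deposited value table. The 15 B cell markers moved the same way, all 15 with a negative difference and a median of -0.58. Among them Ms4a1 had -1.16 ± 0.18 (adjusted p = 0.137, limma) and Cd79a -0.54 ± 0.11 (adjusted p = 0.261), and none was called. B cell markers summed to 27.9 to 28.6 in stimulated KO cells, against 43.1 to 49.7 in stimulated WT cells, and to 42.1 to 43.5 in KO cells in medium, against 55 to 60.4 in WT cells in medium. Their part in the Klhl14 difference was not tested. Stimulation itself left B cell markers with a median of -0.30 in KO and -0.29 in WT cells, with 1 called higher and 3 lower in KO and 1 higher and 1 lower in WT cells. Fcrla, a B cell Fc receptor-like protein, fell by 1.02 in KO (SE 0.18, adjusted p = 0.0248, limma) and by 1.07 in WT cells (SE 0.18, adjusted p = 0.0216). Fcer2a, the low-affinity IgE receptor, rose by 1.19 ± 0.25 in KO (adjusted p = 0.0416, limma) and by 1.52 ± 0.25 in WT cells (adjusted p = 0.0206).

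Prr7 had a difference of -0.88 ± 0.25 (1.83-fold lower, 95% interval -1.49 to -0.26, adjusted p = 0.467, limma). Without both KO replicate 2 arrays it was -0.49 and Klhl14's -1.50. The other 8 genes lay between -0.37 ± 0.28 (Tdrp, adjusted p = 0.603) and 0.41 ± 0.32 (Rab7b, adjusted p = 0.612), with intervals that reach from -1.05 to 1.29 at their ends and hold 0 in each. Serp2 lay closest to 0, at -0.01 ± 0.17 (95% interval -0.42 to 0.40, adjusted p = 0.985). Leaving out both KO replicate 2 arrays turned the sign of 7 of the 10.

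**Figure D4:**
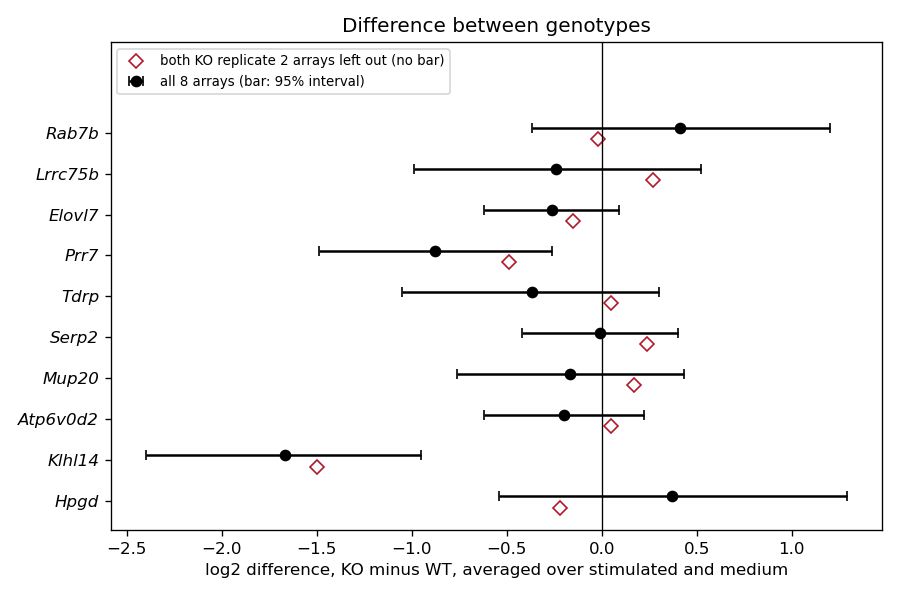
The x axis gives the log2 difference, KO minus WT, averaged over stimulated and medium arrays, with the 95% interval as bars. Each row is a gene of those picked for large decreases. Open diamonds, without bars, give the difference with both KO replicate 2 arrays left out. Klhl14 (-1.67) and Prr7 (-0.88) have intervals below 0, and the other 8 genes have intervals that hold 0. The interval of Klhl14 rests largely on background-level values, and that gene passed the filter only through WT medium.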

How the data were processed

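Total RNA was labelled with Cy3 and hybridised to 1-colour arrays. The authors deposited linear spot intensities from each scan, background-subtracted by Agilent Feature Extraction (version 10.7.1.1, per the file headers). The deposited value table also holds the median intensity of the same spots.

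From these, each array's log2 processed signal was set relative to the 75th percentile of its non-control, non-outlier spots, and repeated spots were averaged. A probe was kept if both arrays of any group showed it well above background (37255 of 55681). Accessions were matched to RefSeq names (GRCm38.p6; the headers give mm9, so no position of a probe is given); 26056 probes were named and 29625 were not. A gene took its brightest probe. limma 3.58.1 (R 4.3.3, with the package data.table, version 1.17.8) fitted 4 group means over 8 arrays, with 4 residual degrees of freedom and 2.11 added by moderation, and was tested on simulated data. The number of arrays limits the precision, since an exact permutation test of 2 arrays against 2 cannot go below p = 0.333. P-values are two-sided. All arrays share 1 slide, so no slide could be tested as a batch.

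The genes and gene lists were chosen with earlier results of these data known. Named besides the 10 genes and Lsp1 are close paralogs, up to 4 called genes of each list with the largest stimulation change, defining cell markers, and some of the 3 genes likest to each gene; a few results under this rule are not reported here. Mup2, Mup21, Siglech, Ccr7, Csf3r and Hpgds fall outside that rule and were named after their values were seen. Alternatives were normexp background correction with offset 50 (on the median signal), quantile normalization, the value table in place of the processed signal, no filter on dim probes, the mean or a further probe of a gene, replicate blocks, only the groups compared, and arrays left out.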

Additional observations from a re-analysis of the deposited data

How the results depend on the processing

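With 2 arrays per group, counts of called genes varied with the arrays in the fit. Leaving out each array in turn gave 366 to 1482 calls for stimulation in KO cells (1230 with all arrays) and 199 to 1753 in WT cells (1553). The KO count was 366 without KO medium replicate 2, 497 without KO stimulated replicate 2, 580 without KO medium replicate 1, 585 without either stimulated WT array and 777 without either medium WT array. The WT count was 199 and 231 without stimulated WT replicate 1 and 2, and 212 and 616 without medium WT replicate 1 and 2. For KO minus WT averaged over conditions it was 1 to 6, with 6 without KO stimulated replicate 1 and 2 without WT stimulated replicate 1, and 2 with normexp, 5 with quantile normalization and 2 in the value table. Without a filter on dim probes the counts moved in opposite directions, to 833 in KO and 3003 in WT cells. Fitting only the groups compared gave 38 in KO and 2713 in WT cells, and leaving out both KO replicate 2 arrays, chosen after seeing the data, 436 and 2713, with 1 array left in each KO group, whose spread is assumed to be like that of the WT groups. The cause was not tested, beyond the smaller number of arrays in these fits. The labels do not say that replicate numbers pair arrays. The gaps between replicates correlated over genes at 0.742 between the KO groups, 0.161 between the WT groups and -0.244 to -0.0612 across genotypes. That is a hint from the data that a number ties medium and stimulated arrays in KO cells. The WT value is no larger in size than some of those across genotypes, so no tie is read from it. A replicate block across groups gave 1148 calls in KO, 1559 in WT cells and 1 between genotypes, and a replicate block within genotype gave 2775 (1353 higher, 1422 lower) in KO and 3525 (1464 higher, 2061 lower) in WT cells. No setting made the KO minus WT difference of any of the 10 genes pass the threshold. Its sign turned without both KO replicate 2 arrays for Rab7b (-0.02), Lrrc75b (0.27), Tdrp (0.05), Serp2 (0.24), Mup20 (0.17), Atp6v0d2 (0.05) and Hpgd (-0.22). Leaving out each array in turn gave -0.56 to 0.08 for Lrrc75b, -0.16 to 0.14 for Serp2 and -0.41 to 0.08 for Mup20, the highest each without KO stimulated replicate 2. For Serp2 it also turned when KO medium replicate 2 (0.09) or the second stimulated WT array (0.06) was left out, and with quantile normalization (0.03). No stimulation change of the 10, the difference they were chosen on, changed sign. Over the alternatives 300 such values moved by less than 1 standard error and 46 by more. Many of the 300 could not move, so the count is no measure of stability. Leaving out an array of 1 genotype leaves the change in the other as it was. The same holds for replicate blocks and for fitting only the groups compared. Counts of calls per gene list changed by over 1.5 times in 209 cases and by less in 624. The 624 include the KO minus WT counts, which were 0 for every list in every setting, so the stimulation counts were less stable than these numbers show. Dim genes, Klhl14 and Hpgd among the 10, are limited by signal over background.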
